A study of Homo sapiens with 6 samples.

Results

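NCM-460 is a line of human epithelial cells taken from normal colon. The profile described here is the resting state of a cancer gene panel in its control cells: 236 transcripts counted in the 3 samples that had been transfected with a control siRNA, out of 6 samples in the series. The members are all rows of the gene class in the raw count table and all samples of the control group. The other group of the series, NCM-460 cells transfected with pri-miR-135b, enters no value below. The control cells are transfected cells and not untouched ones, and the labels do not say whether the 3 samples came from separate cultures, so the spread given here may be technical.

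Transcripts were counted with a NanoString nCounter assay, in which a barcoded probe pair binds each transcript in total RNA and the barcodes are counted singly, without amplification or labelling. A count is therefore the number of barcodes seen for 1 probe pair and does not grow with the length of the transcript. Cancer gene panels of this kind hold oncogenes, tumour suppressors, growth factors and their receptors, cell cycle genes and genes of invasion. In the lining of the colon, epithelial cells are held together by E-cadherin and beta-catenin, grow in response to EGF-type and HGF signals, and lose most of their division as they mature, whereas a cell line keeps dividing. Many of the genes belong to families of related members (paralogues) that can stand in for each other, and cell types differ in which member they use.

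The 3 control samples held 333708, 392207 and 250792 gene counts in replicates 1, 2 and 3. Background was read from 8 probes with no target in the sample, as their mean plus 2 SD within each sample, and came to 15.5, 26.1 and 19.7 counts. Of the 24 values of these probes 2 lay above their own sample's level. How far counts of different probes can be set against each other was read from the positive spikes, RNAs added in stepped amounts. After background was taken off, the counts per unit of spike differed between the 5 more abundant spikes by 2.01-fold, 1.66-fold and 1.78-fold in replicates 1 to 3. With the scarcest spike included, the spread was 3.37-fold, 2.07-fold and 1.78-fold. Ratios between genes of that size lie within the spread between probes, so ranks given below are ranks of counts and not of transcript numbers. In a bulk lysate, fewer cells carrying a transcript and less of it per cell cannot be told apart.

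Of the 236 transcripts, 157 (66.5%) exceeded background in all 3 control samples, 18 in 1 or 2 of them and 61 in none. By sample, 175, 163 and 159 genes were above background in replicates 1, 2 and 3. Levels below are TMM-normalised counts, raw counts scaled to a common library size, unless raw counts are named. The mean level was 10000 or more for 6 genes, 1000 to under 10000 for 49, 100 to under 1000 for 81, 10 to under 100 for 55 and under 10 for 45. The median over the panel was 182.1 counts, and 538.6 over the genes above background in all 3 samples.

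**Figure D1:**
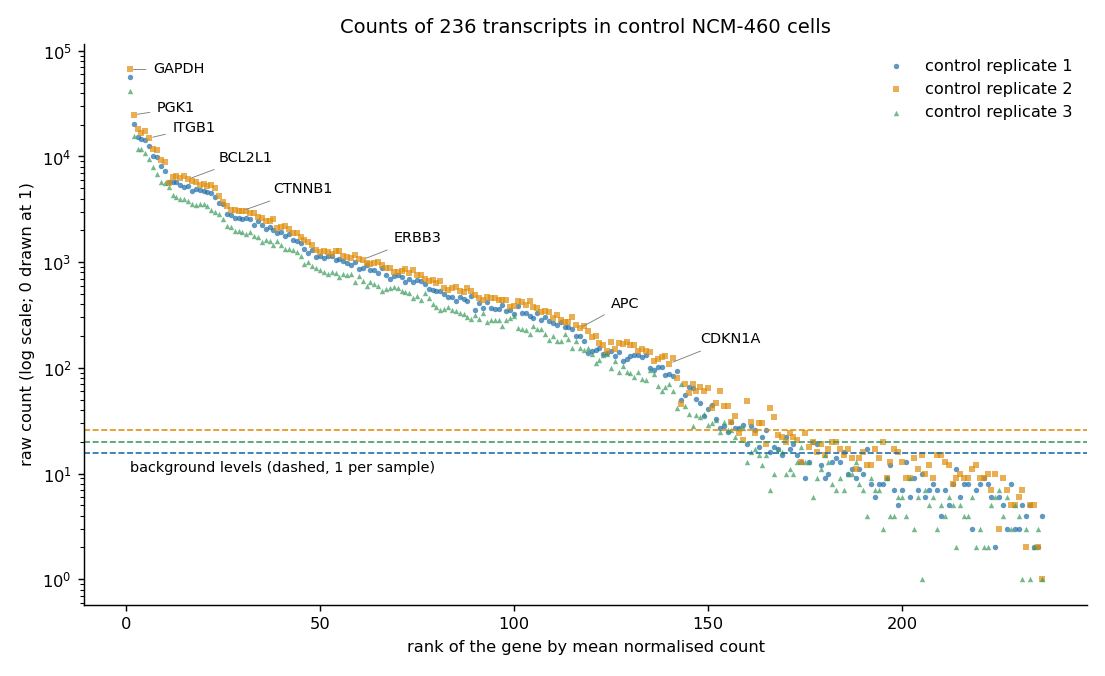
Raw count (log axis) of each of 236 genes in the 3 control samples, ordered by mean normalised count from left to right. Dashed lines mark the background of each sample, at 15.5, 26.1 and 19.7 counts. The points of replicate 3, which had the fewest counts, lie below the others over most of the range.

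A few abundant transcripts took most of the counts. The 10 highest genes held 50.5%, 51% and 50.7% of gene counts in replicates 1, 2 and 3, and the same 10 genes came first in every sample. GAPDH, the glycolytic enzyme used as a reference gene, had 55021.5, 54658.2 and 54655.2 normalised counts. Its share of all gene counts was 16.9% in replicate 1 (95% exact binomial interval 16.7 to 17, for counting error only), 17% in replicate 2 (16.9 to 17.1) and 16.6% in replicate 3 (16.4 to 16.7). PGK1, another glycolytic enzyme, followed at 20303.7 ± 240 counts (SD, n = 3). The 59 to 60 highest genes supplied 90% of the counts in each sample.

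The highest genes that were not reference genes belonged to protein folding, redox defence, DNA end joining and iron uptake. HSP90AB1, a constitutive heat shock chaperone, had 14993.5, 14828.9 and 15600.3 normalised counts. NQO1, a quinone-reducing enzyme of the antioxidant response, had 14199.7, 13735.8 and 15576.6 counts, fewer than HSP90AB1 in each sample although the ranges over the 3 samples overlapped. XRCC5, which encodes the Ku80 subunit that binds broken DNA ends, had 14088.6 ± 212 counts, within the range of NQO1. ITGB1, the integrin beta-1 chain that anchors cells to matrix, had 12224, 12288.7 and 12386.3 counts and lay below all 3 in every sample. The transferrin receptor TFRC (9999.6 ± 347 counts) and TFDP1, the dimer partner of E2F factors (9333.6 ± 286 counts), came next. TOP1, the DNA topoisomerase, had 7726.3 ± 164 counts and TUBB, a beta-tubulin, 7283.6 ± 150. Ranks 11 to 20 were held by S100A4, TYMS, MYBL2, HDAC1, IGFBP6, BCL2L1, MYC, DEK, FAT1 and CDC2, at means between 5690 and 4614.5 counts. The set of the 20 highest genes was the same in all 3 samples, but of the 19 neighbouring pairs among them 9 overlapped in their ranges, so the order within this group is only partly fixed by these data.

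The label of the line was checked against its markers. Of 6 epithelial markers on the panel 5 were above background in all 3 samples, where the whole panel gave 66.5%. CDH1, which encodes E-cadherin, had 1601.3, 1567.8 and 1719.6 normalised counts. AREG, an EGF-type ligand made by epithelia, had 842.7, 881.2 and 979.6. ERBB3, ERBB2 and MST1R, receptors common on epithelial cells, averaged 868.6, 614.6 and 509.6 counts. The exception was the mucin gene MUC1, with raw counts of 16, 15 and 7, above background in replicate 1 only. Of colonic differentiation genes the panel held APC alone, so the colonic origin was not checked by this panel. Of 8 fibroblast and endothelial markers 0 exceeded background in all 3 samples and 6 in none, and their summed level lay between 85.6 and 127.3 normalised counts. The highest of these, IGF1, had raw counts of 19, 49 and 13. The list does not hold every gene of the panel that such cells make. S100A4 and CAV1, listed with the adhesion genes, were above background in all 3 samples, at 5690 and 356.8 counts. MMP2, listed with the proteases, was above it in none. Of 13 blood cell markers 2 were above background in all 3 samples: MYB, a transcription factor of immature dividing cells (385.5 ± 40.1 counts), and BCL6, a transcriptional repressor of germinal centre B cells that other cells also make (143.5 ± 29.8 counts). The kinases LCK and FGR and the receptors CSF1R and CSF3R, which define blood lineages, were above background in none.

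**Figure D2:**
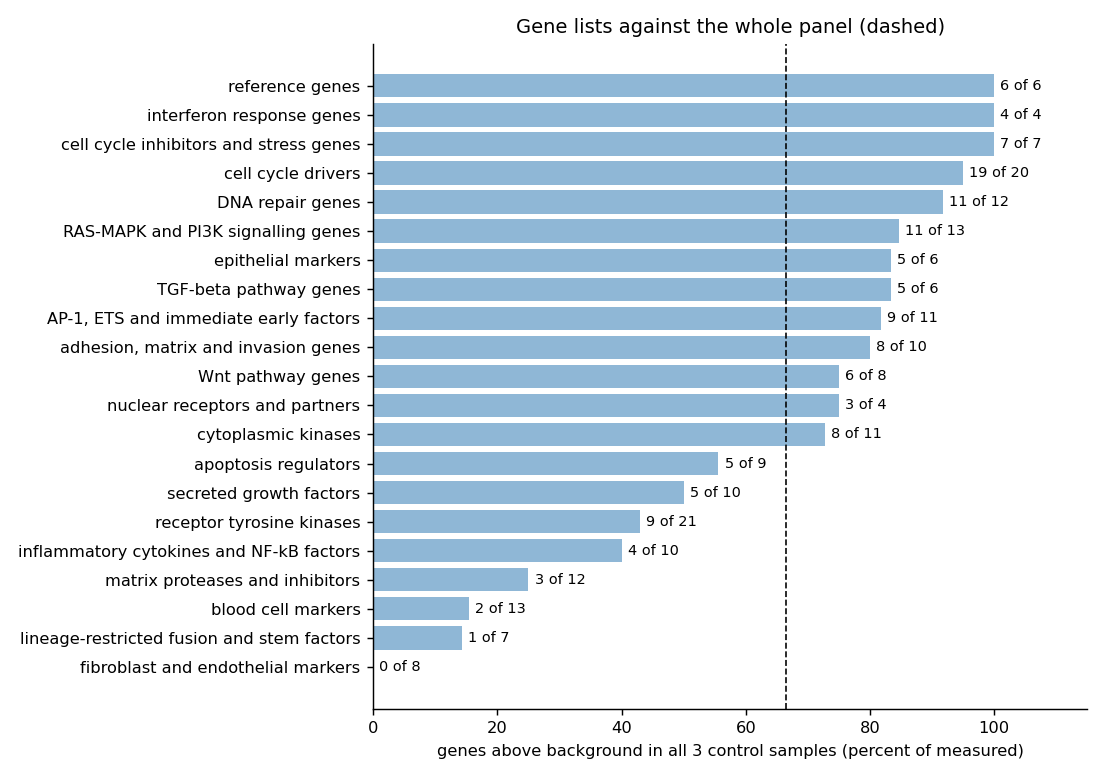
Bars give the share of measured genes of each list that exceeded background in all 3 control samples, with the count beside each bar, and the dashed line the 66.5% of the whole panel. Cell cycle drivers reached 19 of 20, and fibroblast and endothelial markers 0 of 8.

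Genes that drive division were among the most complete groups. Of 20 cell cycle drivers 19 were above background in all 3 samples (95%, and 66.5% over the panel), with a median of 1080 counts beside 182.1 for the panel, and together they held 12.7% ± 0.11 of all gene counts (SD, n = 3). TYMS, which makes thymidylate for DNA synthesis, had 5539.3 ± 228 counts. MYBL2, a transcription factor of the G2/M programme, had 5481.9 ± 133. CDC2, now named CDK1, the kinase that starts mitosis, had 4621.1, 4537.5 and 4684.8. CCNA2, its S and G2 phase cyclin, had 3606.8 ± 171, TOP2A, the mitotic topoisomerase, 2061.6 ± 56.6, and BIRC5, survivin, 1752.7 ± 45.7. CHEK1 had 2070.7 ± 76 and was counted on this list, although as a checkpoint kinase it can also hold division back. The exception was cyclin D2 (CCND2), with raw counts of 17, 23 and 17, above background in replicate 1 only.

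The listed genes that restrain division were detected as well but at lower counts. All 7 measured members of that list were above background in all 3 samples, where the panel gave 66.5%, with a median of 134 counts. The list does not hold every such gene of the panel. WEE1, which holds CDK1 inactive, had raw counts of 10, 17 and 13, and the growth arrest gene GAS1 7, 13 and 6. Neither exceeded background in any sample. RB1, the brake on E2F factors, had 1110.6, 1020.8 and 1102.1 counts. GADD45A, a stress-response gene, had 310.3 ± 19.2. CDKN1A, the CDK inhibitor p21, had 85.1, 90.3 and 92.2 counts. The INK4 inhibitors, which block CDK4 and CDK6, were all low: CDKN2C had 133.7 ± 11.1 counts, CDKN2A 56.7 ± 1.73 and CDKN2B 53.6 ± 9.45. Their targets CDK4 and CDK6 stood at 641.5 ± 45 and 348.6 ± 51.6 counts. In raw counts CDKN2A exceeded the background level in each sample, but by less than 4-fold.

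Among signalling receptors some were detected and others were not. Of the 21 receptor tyrosine kinases on the list used here 9 exceeded background in all 3 samples and 12 in none, with no gene of the list between, and the panel as a whole gave 66.5%. The detected ones were MET, ERBB3, ERBB2, MST1R, FGFR3, FGFR2, FGFR4, EGFR and TYRO3. The undetected ones included receptors known from blood vessels, connective tissue, nerve and blood: KDR, FLT1, TEK, PDGFRA, PDGFRB, KIT, FLT3 and CSF1R. KIT, the stem cell factor receptor, had raw counts of 6, 10 and 7, and RET, the receptor of glial cell line-derived factors, had 8, 14 and 7. TYRO3, a receptor for vitamin K-dependent ligands, was the lowest detected of the list, at 130, 133.9 and 108 normalised counts. The list does not hold every such gene of the panel: PTK7, a receptor-like protein without kinase activity that was listed with the cytoplasmic kinases, was above background in all 3 samples at 32.3, 38.6 and 42.1 counts, and 2 other receptor kinases outside the list were above it in none.

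Levels among related genes, mostly paralogues, were examined in 29 families of which the panel held at least 2 members. In 21 of them a member was above background in all 3 samples, and in each of these the same member had the highest count in every sample. In the other 8 families no member was. Some families were only partly on the panel, so a leading member is the highest of those measured. For example, the panel held 2 of 3 AKT genes, 2 of 3 MYB genes, 2 of 3 TGF-beta receptors and 3 of 4 TIMP inhibitors. A family was called led by 1 member where the highest raw count was at least 4-fold the second in every sample. For this, a count below background was raised to the background level. The rule held for 8 families. Its margin is above the 3.37-fold spread seen among spike probes, but these few spikes do not bound the spread between gene probes. A lead is therefore one of counts, and the part of the probes in it was not tested. With 3 samples an exact permutation test of paired values could not give a two-sided p under 0.25, so the ratios are given with their range and no test.

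MYC, a transcription factor of growth and division, was the only member of its family above background in all 3 samples. It had raw counts of 4695, 5817 and 3535, beside 17, 12 and 4 for MYCL1 and 6, 17 and 7 for MYCN, members known from lung and nerve tumours. Against MYCL1, at its count or at background, MYC was higher by 276-fold, 223-fold and 180-fold in replicates 1 to 3, and the last 2 of these are lower bounds. MYBL2 stood 12.7-fold to 15.5-fold above MYB.

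AKT2 and AKT1 encode kinases that act downstream of PI3K. AKT2 had 830, 800.7 and 825.6 normalised counts, whereas AKT1 had raw counts of 13, 9 and 4, below background in each sample. AKT2 was therefore at least 54.6-fold, 37.4-fold and 31.9-fold higher in replicates 1 to 3. Whether the AKT1 probe counts its transcript as well as other probes do was not tested.

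The panel held 6 of 8 listed SRC family kinases, and SRC itself was not among them. Of those measured, YES1 was highest, at 4011.1, 4119.5 and 3969.9 normalised counts. FYN was next at 128.1, 117.4 and 119.8, which put YES1 31.3-fold to 35.1-fold above it. LYN was above background in replicates 1 and 3 (raw counts of 27, 24 and 27), and LCK and FGR in none. CSK, the kinase that switches SRC family members off, had 1310.6 ± 35 counts.

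The other led families were narrower. TIMP1, an inhibitor of matrix metalloproteinases, had 1757.2 ± 35.8 counts and stood 12.7-fold to 15-fold above TIMP2, with TIMP3 above background in no sample. The proteases themselves were low: of 5 matrix metalloproteinases none exceeded background in all 3 samples, where the panel gave 66.5%. MMP1, the interstitial collagenase, had raw counts of 16, 42 and 7 and passed background in replicates 1 and 2. MET, the hepatocyte growth factor receptor, had 4467.7, 4330.6 and 4436 counts and stood 7.97-fold to 9.52-fold above MST1R, the related receptor RON. TGFBR2, the signalling type II receptor for TGF-beta, stood 7.2-fold to 7.83-fold above the co-receptor TGFBR3. These 2 genes were grouped by their ligand and are not paralogues. ETS2 stood 6.8-fold to 7.6-fold above ETS1.

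**Figure D3:**
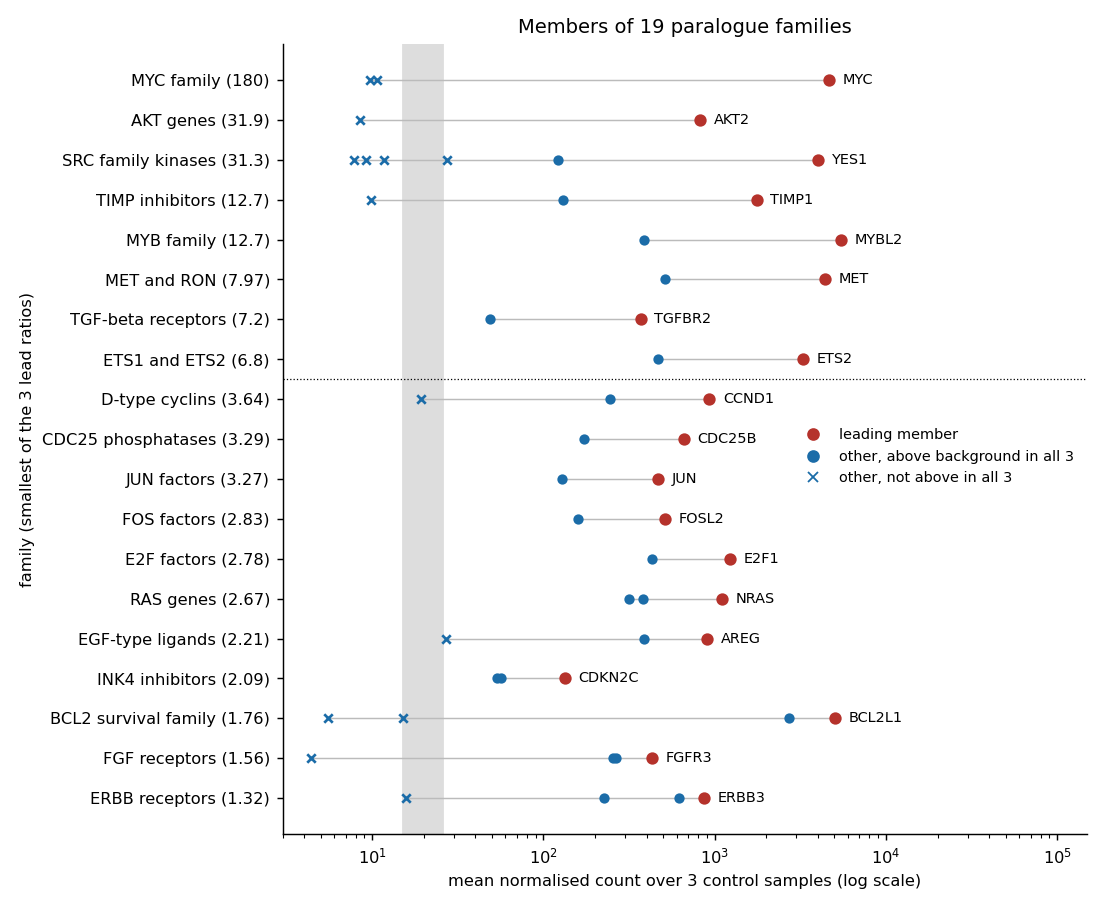
Each row is 1 of 19 families with at least 1 member above background in all 3 control samples; points give mean normalised counts (log axis), the leading member in red, and crosses mark members not above background in all 3. The grey band spans the 3 background levels after scaling, and the 8 families above the dotted line were led at least 4-fold in every sample. The TGF-beta receptor row groups a receptor with a co-receptor that is not its paralogue.

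In 13 families the ratio was under 4-fold in at least 1 sample. CCND1, the D-type cyclin, had 982.5, 956 and 853.2 counts and CCND3 267.9, 234.1 and 234.4, ratios of 3.64-fold to 4.08-fold. CDC25B, a phosphatase that activates CDKs, stood 5.07-fold above CDC25C in replicate 1, but 3.51-fold and 3.29-fold in replicates 2 and 3. FOSL2 and FOS, AP-1 subunits, had 514.7 ± 13.6 and 158.8 ± 18.4 counts, and their partners JUN and JUNB 464.1 ± 9.25 and 127.6 ± 14.7. E2F1 and E2F3 averaged 1224.8 ± 38 and 431.3 ± 6.99 counts, and the ligands AREG and TGFA 901.2 ± 70.6 and 387.7 ± 35.4. NRAS, the RAS gene with the most counts, averaged 1100.7 ± 42.3. The ratios of these E2F, ligand and RAS genes lay below the widest spread of the spike probes, 3.37-fold.

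In several of these families 2 or 3 members were present together and another was at background. ERBB3, ERBB2 and EGFR averaged 868.6 ± 11.1, 614.6 ± 49.5 and 226.2 ± 22.7 counts, beside raw counts of 13, 13 and 18 for ERBB4. FGFR3, FGFR2 and FGFR4 averaged 428.7 ± 41.3, 264.9 ± 18.8 and 256.3 ± 12.2, beside raw counts of 3, 6 and 4 for FGFR1. The ranges of FGFR2 and FGFR4 overlapped. Of the survival genes of the BCL2 family, BCL2L1, which encodes BCL-XL, had 5107, 5007.3 and 5036.4 counts and MCL1 had 2728.5, 2567.3 and 2861.2. BCL2 itself had raw counts of 9, 24 and 13 and BCL2A1 3, 7 and 6, below background in every sample.

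To set these levels beside the genome, the 250 bases before the start of each gene were taken from RefSeq (GRCh38.p14), which gave a sequence for 186 of the 236 genes. Where a gene had more than 1 start, only the first listed was used, and it need not be the start used in these cells. CG dinucleotides, the sites of DNA methylation, cluster in the promoters of widely expressed genes. The median number of CG dinucleotides was 23 in the 130 matched genes above background in all 3 samples, 11 in the 43 above background in none, and 11 over all 27305 promoters of the table. Over all 186 matched genes of the panel the median was 20.5 CG. The quartile ranges overlapped, at 17 to 29 CG for the detected and 5 to 24.5 CG for the undetected genes. The motif GGGCGG, the GC box bound by SP1, searched on both strands, was found in 80% of the detected genes and 53.5% of the undetected genes. It was found in 71.5% of all matched genes of the panel and 42.3% of all promoters. It holds a CG itself, so these measures overlap. The motif TATAAA, on both strands, was found in 9.23% of the detected genes and 9.3% of the undetected genes. Its share was 10.8% over all matched genes of the panel and 11.1% over all promoters. The 13 matched genes above background in 1 or 2 samples had a median of 10 CG, with GGGCGG in 46.2% and TATAAA in 4 of them (30.8%). These are descriptions of sequence beside level, with no test. A gene of each class whose CG count equals the median of its class is shown next, with CG in capitals, written 5′ to 3′ on the gene's strand. AREG (chr4:74444886-74445135, plus strand, 23 CG) holds both motifs, and MYCN (chr2:15940300-15940549, plus strand, 11 CG) holds GGGCGG without TATAAA.
AREG: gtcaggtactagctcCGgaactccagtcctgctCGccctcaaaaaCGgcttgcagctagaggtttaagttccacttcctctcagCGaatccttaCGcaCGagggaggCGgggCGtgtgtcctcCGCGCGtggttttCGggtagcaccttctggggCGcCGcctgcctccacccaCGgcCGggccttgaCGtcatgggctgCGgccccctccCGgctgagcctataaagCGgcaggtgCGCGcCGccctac
MYCN: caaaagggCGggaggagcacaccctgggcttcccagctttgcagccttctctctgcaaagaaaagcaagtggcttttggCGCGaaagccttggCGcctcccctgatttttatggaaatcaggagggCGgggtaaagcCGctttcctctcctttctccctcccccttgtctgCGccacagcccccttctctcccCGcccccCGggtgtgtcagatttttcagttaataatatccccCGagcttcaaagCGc

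Within families the picture differed from that of the panel. For 6 pairs of a leading member and a member above background in no sample, both sequences were in the table, and the leader had more CG in 3 of the 6. YES1 had 32 CG against 7 for LCK and 15 for FGR, and BCL2L1 had 17 against 2 for BCL2A1. In the other 3 pairs the undetected member had more: BCL2 had 24 CG, TIMP3 26 against 12 for TIMP1, and AKT1 39 against 18 for AKT2. The AKT pair is shown because its counts differed by at least 31.9-fold in every sample while its CG content ran the other way. Both lie on the minus strand, AKT2 at chr19:40285346-40285595 and AKT1 at chr14:104795749-104795998, and both hold GGGCGG.
AKT2: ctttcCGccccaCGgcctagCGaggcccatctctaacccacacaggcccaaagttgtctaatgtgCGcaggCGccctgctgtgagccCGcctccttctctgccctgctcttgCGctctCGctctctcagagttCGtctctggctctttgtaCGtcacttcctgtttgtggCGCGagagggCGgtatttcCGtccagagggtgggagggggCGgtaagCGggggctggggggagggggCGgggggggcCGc
AKT1: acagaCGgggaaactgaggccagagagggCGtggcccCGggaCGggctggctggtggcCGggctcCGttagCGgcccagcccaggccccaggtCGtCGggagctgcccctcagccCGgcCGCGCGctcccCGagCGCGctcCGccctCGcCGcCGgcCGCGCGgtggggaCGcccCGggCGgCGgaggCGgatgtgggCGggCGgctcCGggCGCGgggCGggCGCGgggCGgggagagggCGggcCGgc

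Of 8 Wnt pathway genes 6 were above background in all 3 samples (75%, near the 66.5% of the panel), with CTNNB1, beta-catenin, at 2529.1, 2517.2 and 2554.4 counts, the surface receptor CD44 at 2305.7 ± 104 and APC, the scaffold that promotes beta-catenin degradation, at 194.5, 196.3 and 202.8. Both Wnt ligands measured, WNT1 and WNT10B, were at background, with raw counts of 3, 11 and 6 and of 11, 14 and 8. In the TGF-beta group 5 of 6 genes (83.3%) were detected: the ligand TGFB1 (718.8 ± 51.8 counts), TGFBI (446.3 ± 13.1), TGFBR2, TGFBR3 and, near background, the matrix-associated CTGF (39.3 ± 4.75). For secreted growth factors the share was 5 of 10 (50%), with AREG, TGFA, PDGFA, LIF and CTGF detected, and FGF1 and FGF2 in no sample.

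Of 10 inflammatory cytokines and NF-kB factors 4 exceeded background in all 3 samples (40%, and 66.5% over the panel) and 4 in none. IL8, now CXCL8, a chemokine that attracts neutrophils, had 709.7, 671.8 and 705.8 normalised counts. BCL3, an NF-kB cofactor, had 236.3 ± 13.2, the cytokine LIF 92.6 ± 12.4 and the NF-kB subunit REL 44.3 ± 8.8. IL6, IL1A, IL1B and CSF3 were above background in no sample, and IL6 had raw counts of 5, 5 and 0. All 4 interferon response genes were detected, with a median of 364 counts.

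Of the 9 apoptosis regulators on the list used here 5 were detected (55.6%, and 66.5% over the panel). Beside BCL2L1 and MCL1 these were BIRC2, an inhibitor of apoptosis (249.5 ± 11.8 counts), DAPK1, a death-associated kinase (245.3 ± 28.2), and TNFRSF10B, a receptor for the death ligand TRAIL (149.1 ± 7.17). The death receptor FAS had raw counts of 12, 19 and 11 and CASP10, an initiator caspase, had 8, 9 and 4, below background in all samples. The list does not hold every such gene of the panel, so the share depends on the list. CASP2, another caspase, DAP3 and BIRC5 were above background in all 3 samples, at 721.4, 1987.7 and 1752.7 counts. TNFSF10, which encodes TRAIL itself, was detected at 63.5, 57.5 and 36.9 normalised counts. Of the listed adhesion and invasion genes 8 of 10 (80%) were detected. The 2 that were not, CDH11 and SPP1, are known from mesenchymal and bone cells. This share depends on the list as well, and the matrix metalloproteinases were listed apart. Outside the list, LAMB1, a laminin chain, was above background in all 3 samples at 1018.7 counts. L1CAM, an adhesion molecule, had raw counts of 9, 11 and 13, above background in none.

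A few genes lay so close to background that their call rested on a handful of counts. Among those just above it were PTHLH, PLA2G2A, TNFRSF1B and ETV1. PTHLH, a hormone-like peptide related to parathyroid hormone, had raw counts of 31, 31 and 26 beside backgrounds of 15.5, 26.1 and 19.7. ETV1, an ETS factor, had 27, 60 and 25. Just below it were LYN, EGF, CXCL9, IGF1 and CD34. EGF had raw counts of 29, 21 and 27 and missed the level in replicate 2 only, the sample with the highest background. CD34 had 26, 24 and 17 and passed in replicate 1 only. Members on the 2 sides of the level thus had similar counts, and only the number of samples in which they passed set them apart.

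**Figure D4:**
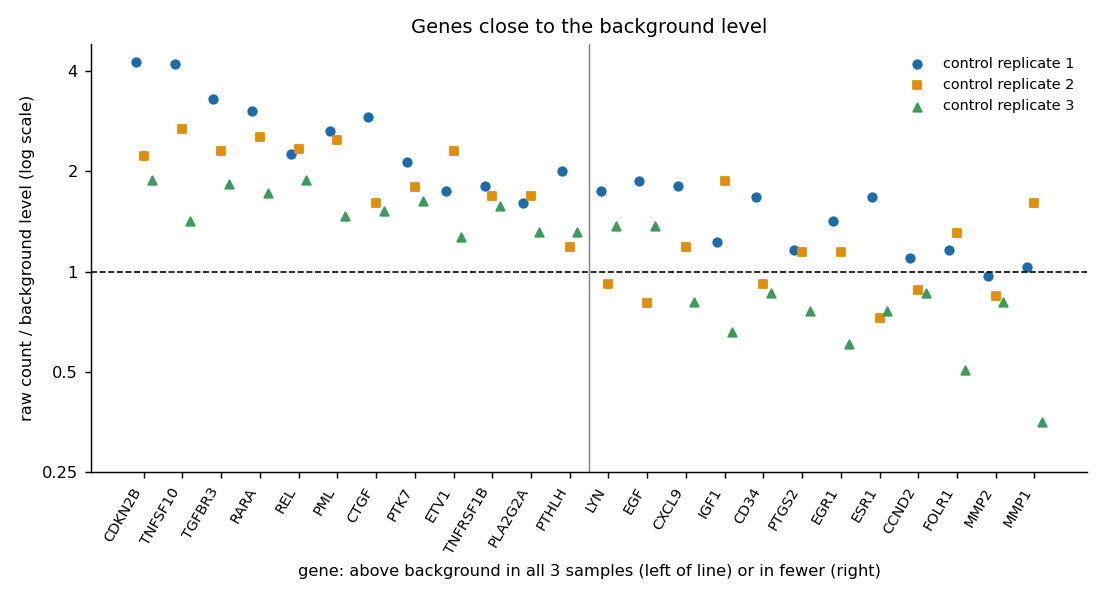
Raw count divided by the background level of the same sample (log axis) for 12 genes close above and 12 close below the level. Left of the grey line all 3 control samples lie above the dashed line at 1; right of it at least 1 sample lies below.

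Replicates agreed closely. Over the 157 genes above background in all 3 samples the median coefficient of variation (CV, the SD as a percent of the mean) was 4.89%. The CV calculated for counting error had a median of 4.4%. A CV measured on only 3 samples falls below its calculated value more often than above it, so the medians are not like for like. Between pairs of samples the median absolute log2 difference was 0.07, 0.08 and 0.09, and 1, 4 and 2 genes differed by more than 1.5-fold for replicates 2 and 1, 3 and 1, and 3 and 2. Pearson correlations of log2 levels across these genes were between 0.996 and 0.997, a description over genes that share libraries and are not independent. The samples still differed by more than counting error, with a mean chi-square of 2.87, 3.28 and 6.17 per gene for the same pairs, so none was treated as a library deposited again; whether they are separate cultures stays unknown.

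The 5 steadiest genes at 100 counts or more included GAPDH (CV 0.385%), ITGB1 (0.664%), CTNNB1 (0.75%) and BCL2L1 (1.02%). Among the reference genes, CLTC and GUSB varied by 1.42% and 2.37%, PGK1 and TUBB by 1.18% and 2.07%, and HPRT1, a purine salvage enzyme, by 4.19%. None of the 6 reference genes passed the spread test described next.

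A chi-square test of the 3 raw counts against the library sizes, with Benjamini-Hochberg adjustment over 157 genes, asked which transcripts varied by more than counting error. It called 19 genes (12.1%), and 47 had an unadjusted p under 0.05. The share called rose with level, from 1 of 21 genes under 100 counts and 5 of 81 between 100 and 1000 to 13 of 55 above, where counting error is smallest. Replicate 3, the shallowest sample, was the highest in 12 of the 19 genes, and in 64 of all 157 tested. Replicate 2, the deepest, was the lowest in 13 of the 19, and in 62 of the 157; the part of depth in this was not tested. The dependence on single samples was large: without replicate 3 the test called 4 genes, without replicate 2 13 and without replicate 1 15.

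S100A4, a calcium-binding protein linked to cell motility, varied most for its level. It had 5652.5, 4628.7 and 6788.9 normalised counts, a CV of 19% where counting error gives 1.35% (chi-square test, adjusted p = 2.55e-85), and it was the only one of the 19 called with each of the 3 samples left out. NQO1 followed, at a CV of 6.6% (adjusted p = 2.11e-23). Its call was lost without replicate 3 (adjusted p = 0.0616), the sample in which it was highest. HIF1A, the hypoxia factor, had 1849.6, 1725.5 and 2092.2 counts (CV 9.87%, adjusted p = 1.7e-06), and this call was also lost without replicate 3 (0.228). ETS2 had 3476.4, 3017.4 and 3362.9 counts, with replicate 2 the lowest (CV 7.28%, adjusted p = 1.67e-07, and 0.389 without replicate 2).

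CYP1A1, a detoxifying enzyme induced through the aryl hydrocarbon receptor, had the largest CV of all tested genes, 48.2%, at a low level. Its normalised counts were 48.9, 37.8 and 92.2, so that replicate 3 held about as much as the others together (adjusted p = 6.5e-05, and 0.525 without replicate 3). Among the genes called at 100 counts or more, the next by CV included BCL6 (20.8%), CDC25C (20.5%), CDK6 (14.8%), SYK (8.18%) and MCL1 (5.41%). CDC25C had 133.9, 183.1 and 202.8 counts, and its call was lost without replicate 1 (adjusted p = 0.57) or replicate 3 (0.0619). BCL6 had 135.9, 118.3 and 176.4 counts and CDK6 319.7, 317.8 and 408.2, both highest in replicate 3. Without replicate 3 their adjusted p was 0.58 and 0.962, and without replicate 2 that of BCL6 was 0.184. The call of SYK, a cytoplasmic tyrosine kinase (adjusted p = 0.04), was lost without replicate 1 (0.711) or 3 (0.0985), and that of MCL1 (adjusted p = 0.00655) without replicate 2 (0.416) or 3 (0.186). Under other scalings the call of MCL1 was lost with total counts (0.0654) and spike scaling (0.304), and those of BCL6 (0.0898) and CDK6 (0.13) with spike scaling; SYK lost its call without a filter on low counts.

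**Figure D5:**
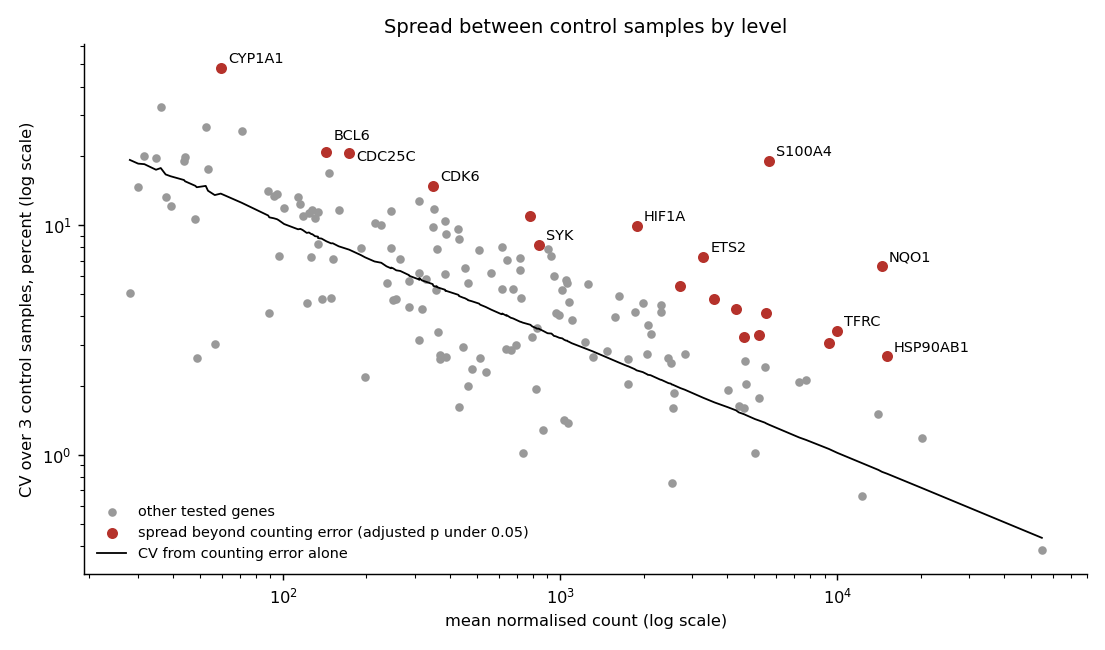
CV over the 3 control samples against mean normalised count (both axes log) for 157 genes; the black line is the CV that counting error alone gives and red points are the 19 genes whose spread exceeded it at an adjusted p under 0.05. S100A4 and NQO1 lie farthest above the line at high counts and CYP1A1 at low counts.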

How the data were processed

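The raw counts are the authors' deposited whole numbers per probe, for 6 positive spikes, 8 negative probes and 236 genes; per the labels' protocols total RNA (33 ng per microlitre) was processed by a core facility. The sources used here name no counting software or lane correction. A second deposited table holds normalized signal values by the authors, which equal the raw count times 1 factor per sample (0.983, 0.838 and 1.29 for control replicates 1 to 3, within 0.062, a raw 0 being set to 1); they serve as an alternative.

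Control columns alone were used. Raw counts were scaled with TMM (edgeR 4.0.16 in R 4.3.3; effective library size, scaled to its mean), with spikes and control probes left out. Background was the mean plus 2 SD of 8 negative probes per sample. The spread test was a Poisson chi-square with 2 degrees of freedom (scipy 1.17.1), threshold 0.05, and was tested on simulated data. There it recovered 26% of genes given 5% extra CV, 49.2% of those given 10% and 71.3% of those given 20%. Of its calls 3.81% were false. A gene not called may therefore still vary beyond counting error. Gene names follow the files; 234 of 236 matched RefSeq (GRCh38.p14) by accession and 2 by symbol or synonym. The members, gene lists and families were chosen with earlier results of these data known. Named are the 20 highest genes, the 5 nearest on each side of background, at a mean of 100 or more the 10 past the spread test with the highest CV and the 5 lowest CVs, reference genes, family members and up to 6 genes per list; others were named after their values were seen. A few genes picked by this rule are left unnamed; they are included in every count, median and share.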

Additional observations from a re-analysis of the deposited data

How the results depend on the processing

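The number of genes above background in all 3 control samples was 157, and between 154 and 165 with a level of 1 or 3 SD, the highest negative probe or a pass in 2 samples; leaving out 1 sample gave 157 to 163. The share of the 10 highest genes (50.7%) was 51% with background subtracted and 41.7% without the reference genes, since GAPDH, PGK1 and TUBB are among them; leaving out 1 sample gave 50.6% to 50.8%. The median CV (4.89%) was 6.33% with positive spike scaling, 5.35% with median-of-ratios scaling and 8.28% without a filter on low counts, and 3.85% to 4.61% with 1 sample left out. Spread beyond counting error was called for 19 genes, for 50 with spike scaling (14 of them shared) and for 20 to 23 with the other scalings; 11 were called under all of these, and leaving out 1 sample gave 4 to 15. Families led by 1 member numbered 8, 17 at 2-fold and 5 at 10-fold, and the same 8 with background subtracted or any sample left out. Of 1296 levels of 162 genes under other scalings or with a sample left out, 2 moved by over 1.5-fold: MMP1 and IL1B, near or under background, had 12.4 and 5.89 counts without replicate 2, against 19.8 and 9.4. No paired analysis was possible because the values describe 1 group and no groups were compared. Genes under background carry an upper limit only.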

Other observations

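Some genes known from most dividing cells had low counts in all 3 control samples. NPM1, an abundant nucleolar protein of growing cells, had 143.7, 163.4 and 146.2 normalised counts. SOD1, the cytosolic superoxide dismutase, had 196.5, 207 and 238.3. GNAS, a locus whose G protein subunit is made in nearly all tissues, had raw counts of 6, 9 and 9. The DNA damage kinase ATM had 8, 5 and 3, and WEE1, which holds CDK1 inactive before mitosis, 10, 17 and 13. These 3 genes were below background in every sample. ATM was the only 1 of 12 listed DNA repair genes not detected (91.7% were, and 66.5% over the panel). How well the probes of these genes count their transcripts was not tested. The GNAS locus makes several transcripts, and which of them its probe counts was not tested either. They were chosen after their values were seen.

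Of 4 nuclear receptors, PPARG, the lipid-sensing receptor, had 928.7, 907.5 and 1015.2 normalised counts, whereas RARA had 48.3 ± 5.14 and ESR1 raw counts of 26, 19 and 15, above background in replicate 1 only. Of 7 lineage-restricted factors (66.5% over the panel were detected), CEBPA, a differentiation factor, was the only one above background in all samples, at 303.1, 353.1 and 275.2 counts. TERT, the telomerase catalytic subunit, had raw counts of 19, 22 and 10 and passed background in replicate 1 only.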
